A study of Homo sapiens with 6 samples.

Results

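The 10 genes described here, CA9, CA12, NDRG1, VEGFA, VEGFC, ADM, ANGPTL4, BNIP3, BNIP3L and ANKRD37, are known effectors of the cellular response to low oxygen. They were taken by symbol from a count table of 30651 genes, and each symbol matched 1 row. They were chosen with the difference between the 2 groups of this series already known, so their own values in that contrast are given as a description and carry no test. RNA came from PC-3, an established human line grown from a prostate cancer that had spread to bone. The MTA1 group (3 libraries), whose columns carry the prefix shMTA1, was set against the Ctrl group (3 libraries), whose columns carry the prefix NC. MTA1 belongs to NuRD, a complex that remodels chromatin and deacetylates histones; the prefix sh commonly stands for short hairpin RNA, which lowers its target's transcript. Both groups share the line and the medium with serum. The labels name lentivirus and stable clones, without the number of hairpins or clones behind the libraries and without the control hairpin, and they name no low-oxygen treatment.

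When oxygen is low, the hydroxylases that mark the alpha subunits of hypoxia-inducible factor (HIF) for destruction slow down, and HIF binds short hypoxia response elements with the core ACGTG or GCGTG beside its target genes. The effectors it switches on act at the cell surface and beyond: carbonic anhydrases handle the acid of glycolysis, VEGF and adrenomedullin act on vessels, and BNIP3 proteins remove mitochondria. Several of them also answer to other signals, among them amino acid stress and lipid-sensing nuclear receptors.

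The core ACGTG stood in the RefSeq promoters of CA9, ANGPTL4, BNIP3 and ANKRD37. Of the 10 genes, 7 matched the promoter table, which gives 250 bases before to 50 bases after each gene's start on GRCh38.p14. NDRG1, VEGFA and BNIP3L did not match, so nothing is said here of their promoters. The 250 bases before the start are shown for the 4 genes that hold ACGTG and for CA12, which is the surface paralog of CA9 and does not hold it. They are written 5′ to 3′ on the gene's strand, with ACGTG, or its reverse complement CACGT, in capitals. The stretches are chr9:35673678-35673927 (plus strand) for CA9, chr4:185396591-185396840 (plus) for ANKRD37, chr10:131981924-131982173 (minus) for BNIP3, chr19:8363905-8364154 (plus) for ANGPTL4 and chr15:63381847-63382096 (minus) for CA12.
CA9: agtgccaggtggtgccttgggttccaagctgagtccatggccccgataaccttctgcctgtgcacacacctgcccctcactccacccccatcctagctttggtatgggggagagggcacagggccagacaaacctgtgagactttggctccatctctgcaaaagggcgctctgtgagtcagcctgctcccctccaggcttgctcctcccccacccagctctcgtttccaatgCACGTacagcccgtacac
ANKRD37: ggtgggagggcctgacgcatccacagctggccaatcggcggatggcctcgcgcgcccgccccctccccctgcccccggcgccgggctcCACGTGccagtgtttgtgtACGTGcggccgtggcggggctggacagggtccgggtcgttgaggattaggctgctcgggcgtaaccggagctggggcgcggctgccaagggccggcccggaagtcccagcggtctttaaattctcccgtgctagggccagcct
BNIP3: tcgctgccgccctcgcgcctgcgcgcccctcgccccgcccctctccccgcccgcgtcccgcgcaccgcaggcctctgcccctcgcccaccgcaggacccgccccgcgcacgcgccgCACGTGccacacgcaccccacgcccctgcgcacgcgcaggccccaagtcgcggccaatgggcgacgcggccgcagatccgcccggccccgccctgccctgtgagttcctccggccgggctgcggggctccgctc
ANGPTL4: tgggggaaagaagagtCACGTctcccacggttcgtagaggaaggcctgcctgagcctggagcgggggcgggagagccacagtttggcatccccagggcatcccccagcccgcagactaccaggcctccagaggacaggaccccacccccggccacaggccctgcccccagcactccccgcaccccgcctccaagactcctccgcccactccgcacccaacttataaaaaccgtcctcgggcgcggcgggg
CA12: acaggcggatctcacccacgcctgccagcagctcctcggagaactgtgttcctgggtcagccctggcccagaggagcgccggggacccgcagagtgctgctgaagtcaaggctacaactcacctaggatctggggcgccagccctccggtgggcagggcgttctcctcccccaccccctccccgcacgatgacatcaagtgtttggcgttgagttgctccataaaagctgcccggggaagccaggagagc

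In CA9 the core lay on the opposite strand with its first base at position -18 from the gene's start, and in ANGPTL4 it lay on the opposite strand at -234. BNIP3 held the palindrome CACGTG, which gives 1 core on each strand, at -134 and -133. ANKRD37 held the same palindrome at -162 and -161 and a further core at -143. The other core, GCGTG, was found in CA12, VEGFC, ADM and BNIP3. Searched on both strands, ACGTG was present in 4 of the 7 promoters (57.1%), against 21.6% of all 27305 promoters of the table. Either core was present in 7 of 7, against 48.4% of all promoters. Among promoters of other hypoxia-responsive genes, listed further on, 24 of 27 held either core. The shares were lower for glycolytic targets of HIF (13 of 19, 68.4%) and genes of oxygen sensing (7 of 11, 63.6%). These cores contain CpG, and the 7 stretches before the start had a GC content of 60.4% to 81.6%, against a median of 58.0% over the table, and the part of base composition in the matches was not tested. The ancillary motif CACAG was found in 6 of 7, against 58.2% of all promoters. The motif TGATGNAA, read by ATF4 and C/EBP factors, was found in none of the 7 and in 3.67% of all promoters, which says only that these letters were not in this window.

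The libraries held 29909172 to 30938820 counts in the MTA1 group and 31726013 to 33849262 in Ctrl. No library stood apart in total counts. Each pair of libraries was compared by a chi-square per gene, larger where their counts differ more. MTA1 replicate 3 gave 8.87 with replicate 1 and 5.73 with replicate 2, further apart than MTA1 replicates 1 and 2 (3.19). Pairs of Ctrl libraries gave 3.90 to 5.16. The MTA1 gene itself had 528, 572 and 519 counts in the MTA1 group, against 1185, 1331 and 1352 in Ctrl (log2 fold change -1.21 ± 0.054 SE, edgeR adjusted p = 4.3e-13). Of 15423 genes with enough counts, 8954 (58.1%) passed edgeR's quasi-likelihood test at an adjusted p under 0.05, 29.5% higher and 28.6% lower in the MTA1 group. Separate cultures are not stated for the libraries, so p-values reflect the spread among these 6 libraries alone, and that spread may be technical. Of 6 markers of PC-3 as an epithelial line, 4 rose (66.7%, against 29.5% of all tested genes) and 1 fell (16.7%, against 28.6%). On the log2 scale the rises were in EGFR (1.04), CD44 (0.73), VIM (0.41) and KRT19 (0.17, with overlapping groups). Among the keratins, KRT8 fell (-0.29) and KRT18 (-0.08) did not pass. KRT18, KRT19 and VIM were picked with their values known. The 6 markers summed to 4258 to 4557 CPM (read counts divided by scaled library size) in the MTA1 group and 4200 to 4418 CPM in Ctrl. KRT8 fell to 1541 CPM in the MTA1 group, against 1886 CPM in Ctrl, and EGFR rose to 27.7 CPM in the MTA1 group, against 13.5 CPM in Ctrl. The leukocyte markers summed to 1.06 to 1.51 CPM in the MTA1 group and 1.52 to 2.11 CPM in Ctrl. Markers of HEK293 cells summed to at most 1.10 CPM in the MTA1 group and 1.40 CPM in Ctrl, and endothelial markers to 11.3 to 11.4 CPM in the MTA1 group and 11.7 to 13.3 CPM in Ctrl. The luminal prostate markers summed to at least 9.92 CPM in the MTA1 group and at most 8.71 CPM in Ctrl, with KLK3, picked with its values known, at 0 CPM in the MTA1 group and 0.0108 CPM in Ctrl. The 6 fibroblast markers summed to 111.9 to 112.3 CPM in the MTA1 group and 76.8 to 85.1 CPM in Ctrl, with THY1 at means of 77.0 CPM in the MTA1 group and 32.1 CPM in Ctrl, and COL1A1 at means of 16.4 CPM in the MTA1 group and 31.6 CPM in Ctrl. Of these 6 markers 1 passed as higher (16.7%, against 29.5% of all tested genes) and 2 as lower (33.3%, against 28.6%). No fibroblast marker was at 0. The labels name PC-3 cells as the source of the RNA, and which cells gave these reads was not tested. In bulk RNA, a lower level from fewer cells cannot be told apart from less RNA per cell.

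All 10 genes had higher means in the MTA1 group. Together they took 0.0721%, 0.0738% and 0.0757% of the counts in MTA1 replicates 1, 2 and 3, against 0.0296%, 0.0299% and 0.0300% in the Ctrl replicates. Log2 fold changes (MTA1 group over Ctrl) ran from 0.16 for BNIP3L to 2.01 for CA9, with a median of 0.98, against a median of 0.002 over all tested genes. In 9 of the 10 genes every MTA1 library was above every Ctrl library, as it was in 32.1% of all tested genes. A log2 fold change of 1 or more was reached by 5 of the 10, as by 2.86% of all tested genes. These counts follow from how the genes were chosen. CPM values were scaled with TMM, a trimmed-mean correction for library composition. MTA1 replicate 3 was the highest library of its group in 7 of the 10 genes.

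**Figure D1:**
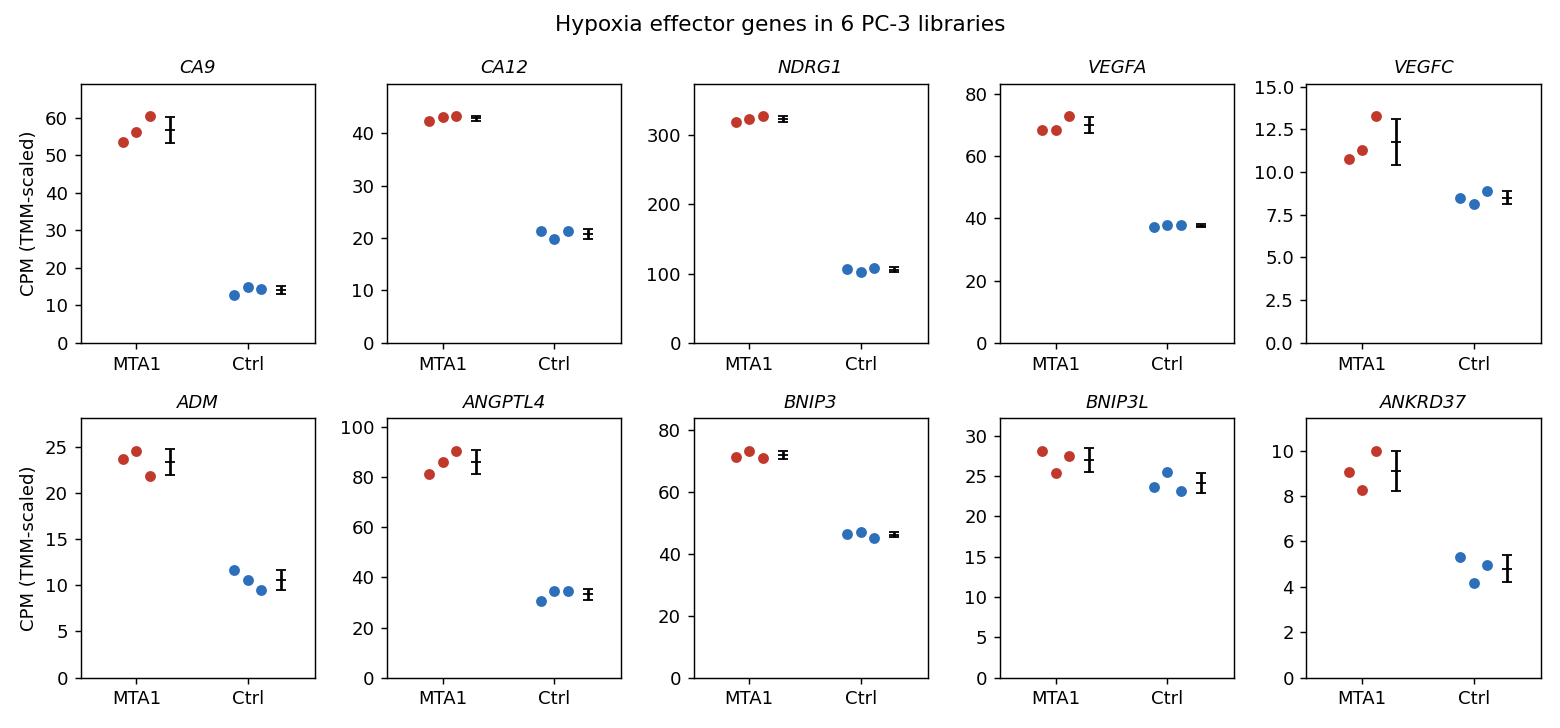
Levels of the 10 hypoxia effector genes in CPM (y axis, from 0, a scale of its own for each gene) in the 3 MTA1 libraries (red) and the 3 Ctrl libraries (blue), with the mean and SD in black beside each group. BNIP3L is the gene whose groups overlap, and in the other 9 the lowest MTA1 library lies above the highest Ctrl library.

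CA9, a carbonic anhydrase anchored in the plasma membrane with its active site outside the cell, stood furthest apart. It had 53.4, 56.3 and 60.4 CPM in the MTA1 libraries, against 12.8, 14.9 and 14.5 CPM in the Ctrl libraries. The lowest MTA1 library was 3.59 times the highest Ctrl library, and the fitted fold change was 4.03 (log2 2.01 ± 0.063 SE). Only 0.298% of the tested genes had a higher log2 fold change. CA12, the other membrane-bound carbonic anhydrase of the set, had 42.3, 43.0 and 43.2 CPM in the MTA1 libraries, against 21.3, 19.8 and 21.4 CPM in Ctrl (log2 fold change 1.04 ± 0.052). Its replicates were close together, with a coefficient of variation of 1.12% in the MTA1 group and 4.41% in Ctrl, and the groups lay far apart. On the length-scaled FPKM values of the authors, the level of CA9 was 5.76 ± 0.298 times that of CA12 in the MTA1 group and 2.95 ± 0.326 times in Ctrl (SD, n = 3 each).

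NDRG1, a cytoplasmic protein induced by low oxygen, iron depletion and differentiation, was the most counted of the 10. It had 319, 324 and 327 CPM in the MTA1 libraries, against 107, 102 and 108 CPM in Ctrl. The spread within a group was small beside the distance between groups (log2 fold change 1.61 ± 0.040). Of the summed CPM of the 10 genes, NDRG1 made up 44.4% to 45.1% in the MTA1 libraries and 33.5% to 35.1% in the Ctrl libraries.

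The secreted factors differed in size of change. VEGFA, the main growth factor of blood vessels, had 68.5, 68.3 and 72.9 CPM in the MTA1 libraries, against 37.2, 37.9 and 37.8 CPM in Ctrl (log2 fold change 0.89 ± 0.046). VEGFC, its relative that acts on lymphatic vessels, had 10.8, 11.3 and 13.3 CPM in the MTA1 libraries, against 8.48, 8.12 and 8.91 CPM in Ctrl. Both genes had groups that did not overlap, but the VEGFC groups came within 1.21-fold of each other (lowest MTA1 library over highest Ctrl library), and without MTA1 replicate 3 its log2 fold change was 0.37 in place of 0.47. The FPKM level of VEGFA was 1.08 ± 0.0816 times that of VEGFC in the MTA1 group and 0.805 ± 0.0393 times in Ctrl (SD, n = 3 each). The ratio was above 1 in 2 of the 3 MTA1 libraries and in 0 of the 3 Ctrl libraries.

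ADM, the precursor of the vasodilator peptide adrenomedullin, had 23.7, 24.5 and 21.8 CPM in the MTA1 libraries, against 11.7, 10.5 and 9.48 CPM in Ctrl (log2 fold change 1.15 ± 0.073). ANGPTL4, a secreted inhibitor of lipoprotein lipase, had 81.2, 86.3 and 90.5 CPM in the MTA1 libraries, against 30.6, 34.6 and 34.6 CPM in Ctrl (log2 fold change 1.37 ± 0.055). In both genes the lowest MTA1 library was well above the highest Ctrl library, 1.87-fold for ADM and 2.35-fold for ANGPTL4. ANGPTL4 was the third of the 10 by log2 fold change and ADM the fourth.

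The mitophagy receptors showed smaller differences. BNIP3, a protein of the outer mitochondrial membrane that binds the LC3 family of autophagy proteins, had 71.3, 73.2 and 70.9 CPM in the MTA1 libraries, against 46.2, 47.0 and 45.2 CPM in Ctrl. Its replicates varied by under 2% in each group (coefficient of variation 1.77% in the MTA1 group and 1.95% in Ctrl), so a log2 fold change of 0.64 ± 0.044 left the groups well separated. BNIP3L, its close relative also known as NIX, had 28.1, 25.3 and 27.5 CPM in the MTA1 libraries, against 23.6, 25.5 and 23.2 CPM in Ctrl. Here MTA1 replicate 2 lay just below Ctrl replicate 2, and 36.0% of the tested genes had a log2 fold change above the 0.16 ± 0.057 of BNIP3L. On the FPKM scale its groups did not overlap, with 6.11, 5.50 and 6.03 FPKM in the MTA1 libraries, against 4.89, 5.35 and 4.81 FPKM in Ctrl. The FPKM level of BNIP3 was 2.08 ± 0.153 times that of BNIP3L in the MTA1 group and 1.49 ± 0.0487 times in Ctrl (SD, n = 3 each).

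ANKRD37, a small ankyrin repeat protein known as a target of HIF-1, was the least counted of the set, with 262 to 310 reads in the MTA1 libraries and 136 to 164 in Ctrl. It had 9.06, 8.26 and 9.99 CPM in the MTA1 libraries, against 5.31, 4.15 and 4.95 CPM in Ctrl (log2 fold change 0.92 ± 0.103). The groups did not overlap, and its spread was the widest of the 10 in Ctrl, with a coefficient of variation of 9.49% in the MTA1 group and 12.3% in Ctrl.

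**Figure D2:**
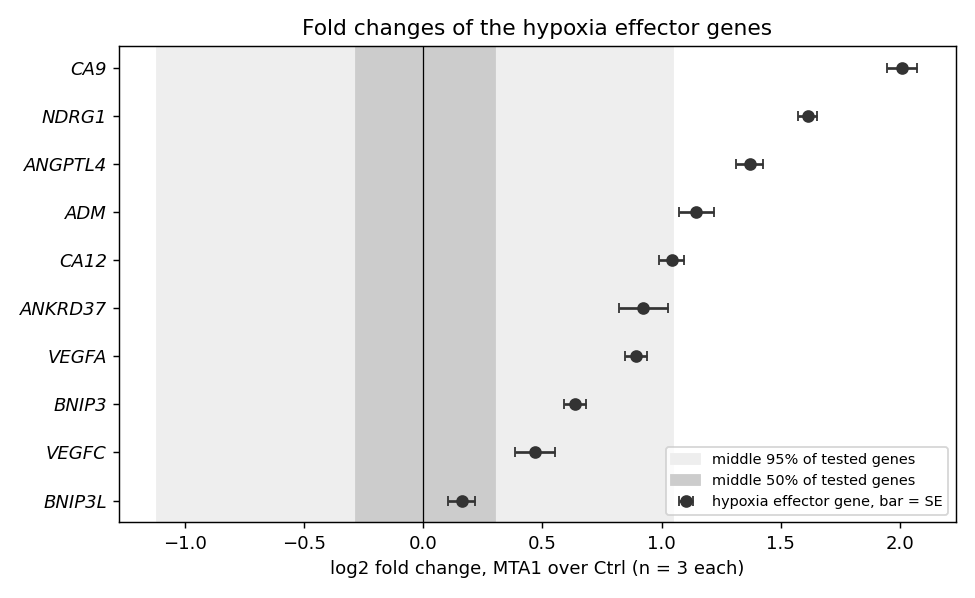
Log2 fold changes, MTA1 group over Ctrl (x axis), of the 10 genes, with bars for the SE derived from the F test, over bands that hold the middle 50% and middle 95% of all tested genes. CA9, NDRG1, ANGPTL4 and ADM lie above the upper end of the 95% band at 1.05, CA12 lies at that end with 1.04, and BNIP3L lies inside the 50% band.

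Reads of 2 of these genes cannot be assigned with full certainty, because the strand setting of the counting is not given in the sources used here. In the GENCODE 29 annotation, ARHGEF39 on the opposite strand covers 38.5% of the merged exon bases of CA9, and UFSP2 on the opposite strand covers 35.2% of those of ANKRD37. Both partners fell, ARHGEF39 to 142, 175 and 169 counts in the MTA1 libraries, against 204, 199 and 195 in Ctrl (log2 fold change -0.25, edgeR adjusted p = 0.038), and UFSP2 to 300, 321 and 284 counts in the MTA1 libraries, against 364, 403 and 390 in Ctrl (-0.30, edgeR adjusted p = 0.0012). Their direction was opposite to that of CA9 and ANKRD37. The overlaps of VEGFA, ANGPTL4 and BNIP3L with other genes took at most 7.66% of their exon bases.

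Length-scaled levels put the genes in a different order in each group. In the MTA1 group CA9 (31.9 ± 2.17 FPKM, mean ± SD, n = 3 here and below) and ANGPTL4 (31.4 ± 1.88) led with overlapping ranges, followed by NDRG1 (24.4 ± 0.472), BNIP3 (12.2 ± 0.181), ADM (9.08 ± 0.498), BNIP3L (5.88 ± 0.332), CA12 (5.54 ± 0.0900), VEGFA (4.38 ± 0.188), VEGFC (4.07 ± 0.490) and ANKRD37 (3.66 ± 0.366). BNIP3L with CA12, VEGFA with VEGFC, and VEGFC with ANKRD37 were further neighbours whose ranges overlapped. In Ctrl ANGPTL4 stood alone at the top (11.6 ± 0.863 FPKM), and NDRG1 (7.60 ± 0.187), CA9 (7.55 ± 0.630) and BNIP3 (7.48 ± 0.192) had overlapping ranges below it. BNIP3L (5.02 ± 0.291 FPKM), ADM (3.92 ± 0.396), VEGFC (2.80 ± 0.117), CA12 (2.57 ± 0.0929), VEGFA (2.25 ± 0.0404) and ANKRD37 (1.84 ± 0.210) followed without overlap in Ctrl. The length behind these values, estimated from the ratio of counts to FPKM, was 8.98 times as long for VEGFA as for CA9, and 7.46 times as long for NDRG1. The merged exons have the same order, with 14431 bases for VEGFA, 9823 for NDRG1 and 1670 for CA9 in GENCODE 29. Merged exons join all annotated forms of a gene, and the transcripts present may be shorter. FPKM would then understate VEGFA and NDRG1 beside genes with short merged exons. The FPKM orders and ratios between genes given here hold only for these lengths.

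**Figure D3:**
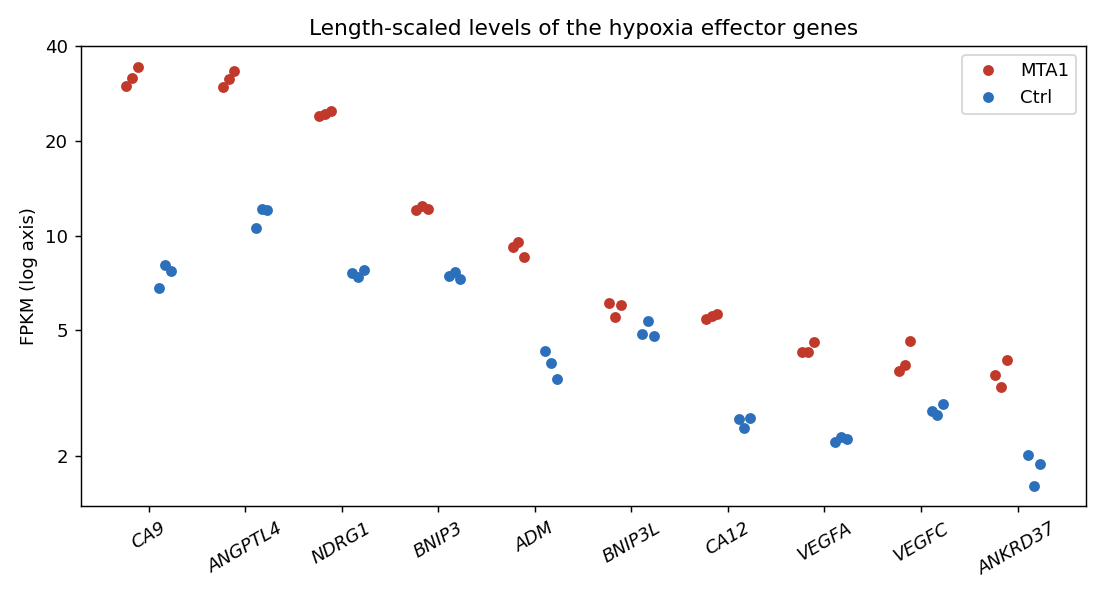
Deposited FPKM values (y axis, log scale) of the 10 genes in each of the 3 MTA1 libraries (red) and 3 Ctrl libraries (blue), ordered by the mean of the MTA1 group. CA9 lies beside NDRG1 and BNIP3 in Ctrl and beside ANGPTL4 in the MTA1 group.

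The genes whose profile over the 6 libraries was nearest to each of 3 lead genes were found by the Euclidean distance of centred log2 CPM values, among tested genes with a mean of at least 5 CPM. Nearest to CA9 were PPFIA4 (distance 0.164, log2 fold change 1.95), the protease inhibitor gene SERPINE2 (0.187, 1.89) and the long non-coding RNA MIR503HG (0.218, 2.07). Nearest to NDRG1 were the glycolytic enzyme gene ENO2 (0.126, 1.66), the desmosomal periplakin gene PPL (0.151, 1.65) and the chaperone gene HYOU1 (0.153, 1.65). Nearest to VEGFA were the collagen gene COL5A2 (0.0478, 0.91), ANXA2 (0.0658, 0.86), which encodes an annexin, and the receptor phosphatase gene PTPRF (0.0669, 0.85). The profiles are set mainly by the difference between the groups, so these are genes with a like fold change and no test is given.

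Among the other carbonic anhydrases, 3 of 13 had enough counts to be tested and CA11, which encodes a relative without enzyme activity, fell to 9.16 ± 1.10 CPM in the MTA1 group, against 19.0 ± 1.14 CPM in Ctrl (log2 fold change -1.05 ± 0.080, edgeR adjusted p = 8.8e-10). On the FPKM scale CA11 had 4.26 ± 0.483 in the MTA1 group and 8.41 ± 0.443 in Ctrl, where its mean was above the 7.55 FPKM of CA9. CA5B (0.32) and CA13 (-0.55) did not pass, and both were picked with their values known. Among the NDRG paralogs, NDRG2 fell to 3.20 ± 0.398 CPM in the MTA1 group, against 8.48 ± 0.907 CPM in Ctrl (-1.40 ± 0.11, edgeR adjusted p = 2.2e-09), and NDRG3 fell to 26.7 ± 1.10 CPM in the MTA1 group, against 38.7 ± 0.574 CPM in Ctrl (-0.54 ± 0.051, adjusted p = 2.3e-08). NDRG4, with 1.67 ± 0.211 CPM in the MTA1 group and 0.923 ± 0.0763 CPM in Ctrl, rose (0.86 ± 0.201, edgeR adjusted p = 0.0011). The other angiopoietin-like genes were scarce: 3 of 7 were tested and none passed in edgeR, at an unadjusted p under 0.05 (0 genes) or in DESeq2 (0 genes), and their mean levels were at most 0.451 CPM in the MTA1 group and 0.560 CPM in Ctrl.

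**Figure D4:**
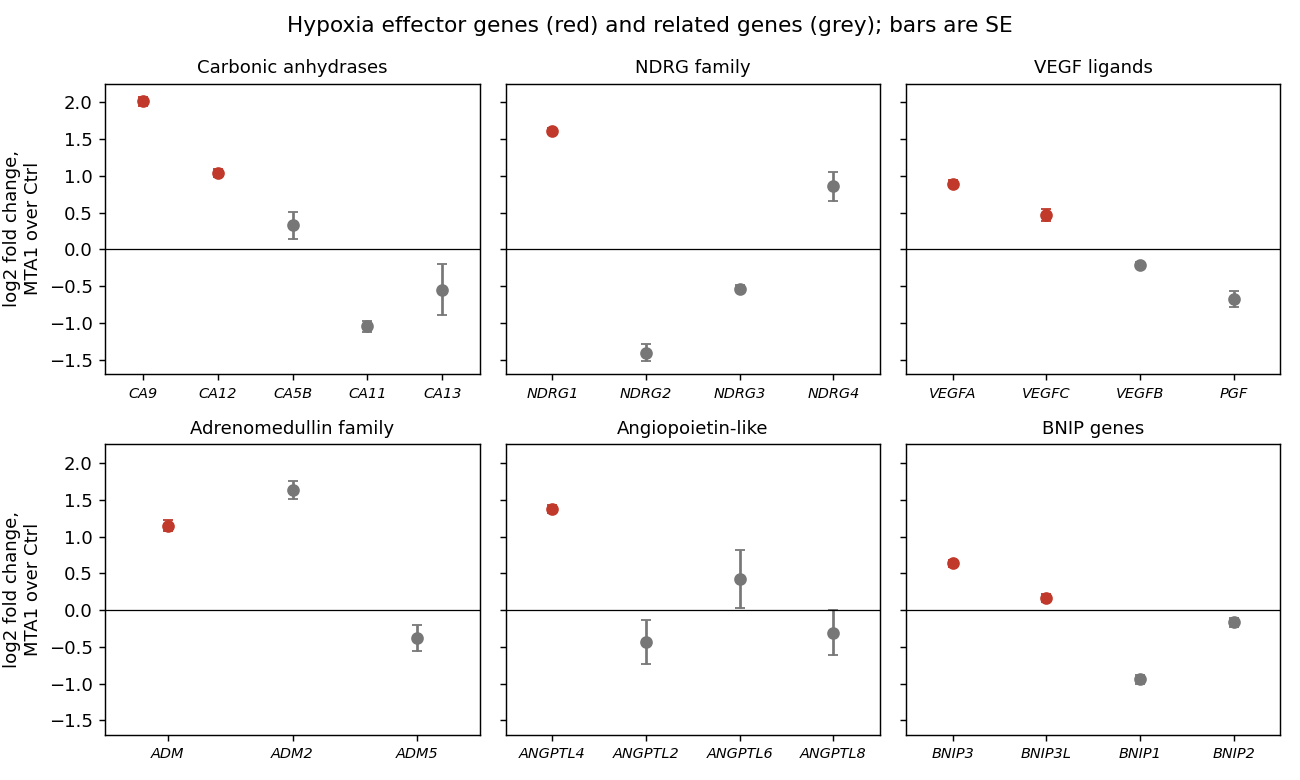
Log2 fold changes, MTA1 group over Ctrl (y axis, bars are SE), of the hypoxia effector genes (red) and of related genes with enough counts (grey), by family. CA11, NDRG2, NDRG3, PGF, VEGFB, BNIP1 and BNIP2 lie below 0 and passed the test as lower, and ADM2 and NDRG4 passed as higher.

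Of 5 tested VEGF ligands and receptors, 2 rose (40%) and 2 fell (40%), against 29.5% higher and 28.6% lower over all tested genes. The neuropilins, co-receptors of VEGF, rose: NRP1 had 45.4 ± 2.65 CPM in the MTA1 group and 28.8 ± 1.01 CPM in Ctrl (0.66 ± 0.054, edgeR adjusted p = 2.7e-09), and NRP2 had 14.3 ± 0.641 CPM in the MTA1 group and 9.50 ± 0.537 CPM in Ctrl (0.59 ± 0.072, adjusted p = 6.7e-07). The placental growth factor gene PGF fell to 4.12 ± 0.436 CPM in the MTA1 group, against 6.59 ± 0.430 CPM in Ctrl (-0.68 ± 0.11, edgeR adjusted p = 1.5e-05). VEGFB, picked with its values known, fell as well (-0.21 ± 0.040, edgeR adjusted p = 1.8e-04), and its level of 57.0 ± 0.0764 FPKM in the MTA1 group and 62.9 ± 2.52 FPKM in Ctrl was above that of VEGFA in both groups. The receptor genes KDR and FLT4, picked with their values known, had too few reads for the test, with KDR at means of 0.227 CPM in the MTA1 group and 0.262 CPM in Ctrl, and FLT4 at 0.151 CPM in the MTA1 group and 0.239 CPM in Ctrl. ADM2, which encodes a second peptide of the adrenomedullin family, rose to 5.78 ± 0.369 CPM in the MTA1 group, against 1.87 ± 0.0658 CPM in Ctrl (1.63 ± 0.12, edgeR adjusted p = 7.6e-10). Of 3 tested genes of the adrenomedullin list, none fell in edgeR, 1 (ADM5, -0.38 ± 0.182, picked with its values known) was lower at an unadjusted p under 0.05, and DESeq2 called 0 and both FPKM scales 1 lower. ACKR3, a scavenger receptor for adrenomedullin picked with its values known, stood at 5.21 ± 0.193 CPM in the MTA1 group and 5.37 ± 0.627 CPM in Ctrl (-0.04 ± 0.11) and did not pass.

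Other genes known to respond to low oxygen were mostly higher, though not all. Of 35 in a list without glycolytic enzymes, all tested, 28 rose (80.0%, against 29.5% of all tested genes) and 3 fell (8.57%, against 28.6%). The median log2 fold change was 0.68. This list and all other gene lists here were chosen with earlier results of these data known. Their shares are therefore a description and no independent support. The stanniocalcin genes, which encode secreted hormones, led by p: STC2 had 74.0 ± 2.58 CPM in the MTA1 group and 21.4 ± 1.36 CPM in Ctrl (1.79 ± 0.054, edgeR adjusted p = 9.0e-16), and STC1 had 39.7 ± 4.78 CPM in the MTA1 group and 10.7 ± 0.250 CPM in Ctrl (1.89 ± 0.075, adjusted p = 7.3e-14). HMOX1, the heme oxygenase of the oxidative stress response, fell to 17.2 ± 0.491 CPM in the MTA1 group, against 37.2 ± 1.55 CPM in Ctrl (-1.12 ± 0.055, edgeR adjusted p = 1.3e-12). The chemokine receptor gene CXCR4 (-0.59) and PNRC1 (-0.71) fell too, and DDIT4, BHLHE40, BHLHE41 and EFNA1 did not pass, these 6 picked with their values known. DDIT4, an inhibitor of mTORC1 signalling, was abundant at 1267 ± 13.5 CPM in the MTA1 group and 1284 ± 39.6 CPM in Ctrl (-0.02 ± 0.040).

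Glycolytic targets of HIF were also mostly higher. Of 20 tested, 18 rose (90.0%, against 29.5% of all tested genes) and none fell in edgeR (against 28.6%), with a median log2 fold change of 0.59. At an unadjusted p under 0.05, 1 was lower, and DESeq2 and limma on both FPKM scales called 0 lower. The neuronal enolase gene ENO2 rose to 38.5 ± 1.13 CPM in the MTA1 group, against 12.2 ± 0.737 CPM in Ctrl (1.66 ± 0.058, edgeR adjusted p = 9.3e-15), and the glucose transporter gene SLC2A1 rose by 1.23 ± 0.050 on the log2 scale (adjusted p = 7.7e-14). The genes that did not pass were PFKL (-0.09 ± 0.043) and GAPDH (-0.06 ± 0.050), picked with their values known. Without MTA1 replicate 3 both passed as lower (edgeR adjusted p = 0.026 for PFKL and 0.021 for GAPDH), and PFKL did without Ctrl replicate 1 (0.042). A list of genes for acid or bicarbonate transport, which works beside CA9 and CA12, was looked at too, with BSG and SLC4A11 among them. Of 9 tested, 7 rose (77.8%, against 29.5% of all tested genes) and 1 fell (11.1%, against 28.6%). Of these, the lactate exporter SLC16A3, which is in the glycolytic list too, had 609 ± 41.6 CPM in the MTA1 group and 396 ± 22.4 CPM in Ctrl (0.62 ± 0.050, edgeR adjusted p = 2.3e-09), and SLC16A1 had 87.7 ± 1.91 CPM in the MTA1 group and 63.5 ± 2.31 CPM in Ctrl (0.46 ± 0.044, adjusted p = 2.1e-08). The gene that fell, the proton pump subunit ATP6V1A (-0.15 ± 0.058, edgeR adjusted p = 0.031), lost its call in 8 of 15 alternatives, with an adjusted p of up to 0.23, among them without MTA1 replicate 2 (0.14), without Ctrl replicate 1 (0.10) and without Ctrl replicate 3 (0.052).

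Of 13 tested genes of oxygen sensing itself, 5 rose (38.5%) and 5 fell (38.5%), against 29.5% higher and 28.6% lower over all tested genes, and the median log2 fold change was -0.03. With a filter of 1 CPM 4 rose and 5 fell, in DESeq2 4 and 4, and with library-size scaling 6 and 4. EGLN2 and ARNT2, picked with their values known, rose but were scarce, with means of 1.09 and 1.21 CPM in the MTA1 group and 0.530 and 0.609 CPM in Ctrl. HIF1A, an alpha subunit of HIF, had 33.5 ± 1.75 CPM in the MTA1 group and 26.9 ± 0.665 CPM in Ctrl (0.32 ± 0.054, edgeR adjusted p = 4.2e-05). EPAS1, another alpha subunit picked with its values known, had 59.0 ± 3.84 CPM in the MTA1 group and 63.1 ± 0.179 CPM in Ctrl. It did not pass (-0.10 ± 0.049, edgeR adjusted p = 0.095), though every MTA1 library was below every Ctrl library, as in 30.6% of all tested genes. EGLN3, a HIF hydroxylase gene that HIF itself induces, had 23.7 ± 2.57 CPM in the MTA1 group and 16.4 ± 0.204 CPM in Ctrl (0.52 ± 0.069, edgeR adjusted p = 1.9e-06). ELOB, which encodes a subunit of the ubiquitin ligase that degrades HIF, fell to 113 ± 3.88 CPM in the MTA1 group, against 165 ± 2.69 CPM in Ctrl (-0.55 ± 0.041, edgeR adjusted p = 5.1e-10).

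Other genes of mitophagy were mostly lower. A list of mitophagy receptors, the LC3 family and BNIP1 and BNIP2 had 18 tested genes. Of these, 12 fell (66.7%, against 28.6% of all tested genes) and 2 rose (11.1%, against 29.5%). The median log2 fold change was -0.20. Without BNIP1 and BNIP2, which were left out after the data were seen, 10 of 16 fell and 2 rose. Scaling by library size only and both FPKM scales gave 4 that rose. BNIP1, which shares its name with BNIP3 but works in membrane fusion at the endoplasmic reticulum, fell to 12.3 ± 0.657 CPM in the MTA1 group, against 23.6 ± 1.29 CPM in Ctrl (-0.94 ± 0.064, edgeR adjusted p = 1.6e-10). The autophagy receptor gene OPTN fell to 139.6 ± 1.03 CPM in the MTA1 group, against 230.2 ± 2.44 CPM in Ctrl (-0.72 ± 0.038, edgeR adjusted p = 3.5e-12). PHB2, a prohibitin of the inner mitochondrial membrane, rose to 227 ± 4.94 CPM in the MTA1 group, against 177 ± 4.34 CPM in Ctrl (0.36 ± 0.039, edgeR adjusted p = 1.6e-07). GABARAPL1 (-0.70), a member of the LC3 family, and the kinase gene PINK1 (-0.60) fell too, and both were picked with their values known.

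**Figure D5:**
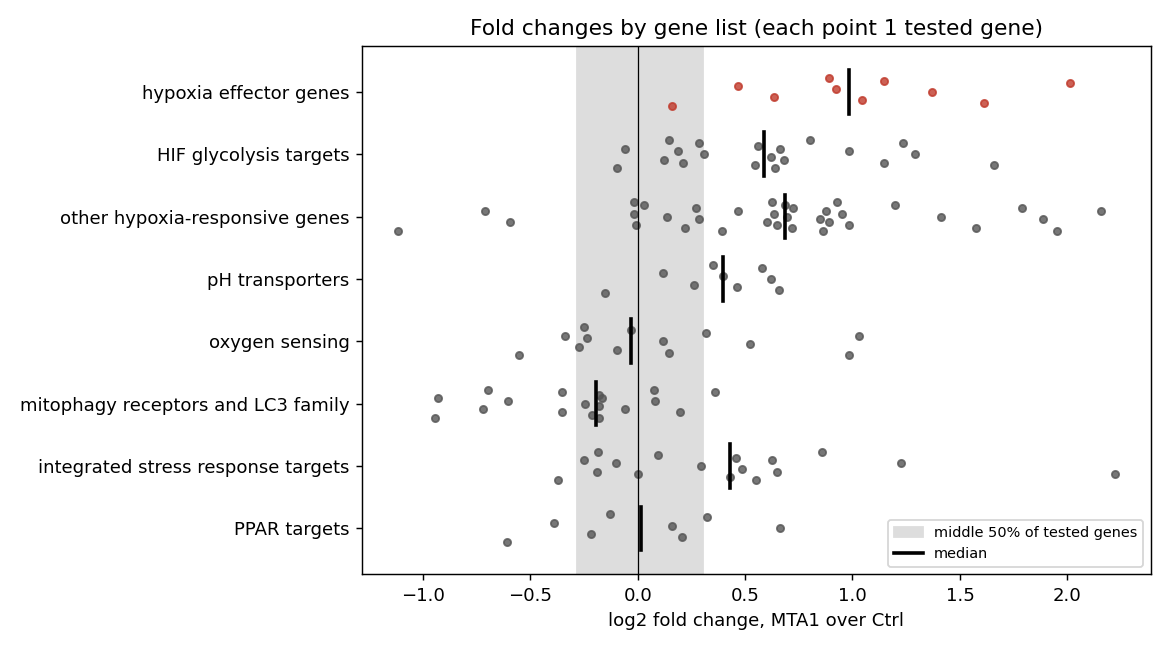
Log2 fold changes, MTA1 group over Ctrl (x axis), of the tested genes of 8 lists, 1 point a gene, with the median of each list as a black bar and the middle 50% of all tested genes in grey. Among these 8 lists the medians run from -0.20 for the mitophagy list to 0.98 for the hypoxia effector genes, which were chosen on this contrast.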

How the data were processed

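Per the labels, total RNA of PC-3 cells was made into stranded total RNA libraries with the SMARTer kit and sequenced as paired reads. The authors deposited whole-number counts per gene without normalization, and FPKM values that they scaled for length and depth and rounded to 2 decimals. DESeq2 is listed in the submitters' processing notes with no role. Not given in the sources used here were the aligner, counting tool, strand setting, build and annotation. Columns with shMTA1 were assigned to the MTA1 samples by name, and those with NC to Ctrl by elimination.

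Counts were fitted in R 4.3.3 with edgeR 4.0.16 (filterByExpr, TMM, quasi-likelihood F test, group as sole term, 2-sided, Benjamini-Hochberg over all 15423 tested genes, threshold 0.05). Values are mean ± SD over 3 libraries and log2 fold changes ± SE. This SE was derived from the test, as the absolute log2 fold change divided by the square root of the F statistic. Alternatives used DESeq2 1.42.0 and limma 3.58.1. The edgeR script was tested on simulated data. The 10 genes and all lists were chosen with earlier results of these data known. The text names the 10 genes, MTA1, up to 2 called genes per list with the smallest p in the leading direction and up to 1 in the other, and the 3 nearest profiles to CA9, NDRG1 and VEGFA; any other gene named was picked with its values known. Genome neighbours (RefSeq) and exon lengths and overlaps (GENCODE 29) were added after the data were seen, with genes matched by symbol or identifier, since the build behind the counts is unknown. A planned comparison of protein sequences was not made.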

Additional observations from a re-analysis of the deposited data

How the results depend on the processing

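The 10 genes kept a positive log2 fold change under all 15 alternatives. Their median, 0.98, was 0.80 on log2(FPKM + 1), where the pseudocount weighs on low levels, 1.05 with library-size scaling, and 0.95 to 1.02 with 1 library left out. Library-size scaling moved the median of all genes from 0.002 to 0.07 and gave CA9 its highest value (2.08). BNIP3L ran from 0.13 without Ctrl replicate 3 to 0.23 with library-size scaling. The genes called higher over all tested genes numbered 4550, and 3679 in DESeq2, 5376 with library-size scaling and 4092 to 4354 with 1 library left out. Those called lower numbered 4404, and 3664 in DESeq2, 3335 on log2(FPKM + 1) and 4017 to 4232 with 1 library left out. Of 28 genes outside the 10 that the naming rule took from the pathway lists, 1 (ATP6V1A) lost its call in some alternative; the genes picked with their values known, and MTA1, were not followed one by one. The glycolytic genes called lower, 0 as reported, were 1 with a filter of 1 CPM, 1 with the replicate block and 0 to 2 with 1 library left out. Lower carbonic anhydrase paralogs numbered 2 in place of 1 with no filter and in DESeq2, and lower PPAR targets 2 in place of 4 on both FPKM scales. The replicate numbers were not treated as pairs, since the deviations of same-numbered libraries correlated at 0.0666, -0.0207 and 0.0191; with the replicate block, 4638 genes were higher and 4501 lower, and the median of the 10 was 0.98. ACGTG was in 4 of 7 promoters with the 50 bases after the start left out, against 18.7% of all. Low counts limit ANKRD37 and VEGFC most.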

Other observations

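Targets of the integrated stress response, a pathway that also acts on some hypoxia effector genes, were more often higher than lower. Of 17 tested, 10 rose (58.8%, against 29.5% of all tested genes) and 4 fell (23.5%, against 28.6%). The median log2 fold change was 0.43. DDIT3, a transcription factor of this response, rose to 135 ± 3.05 CPM in the MTA1 group, against 57.8 ± 2.77 CPM in Ctrl (1.23 ± 0.045, edgeR adjusted p = 2.2e-14), and SESN2 rose to 27.8 ± 0.202 CPM in the MTA1 group, against 15.3 ± 0.178 CPM in Ctrl (0.86 ± 0.054, adjusted p = 4.6e-11). PHGDH, the first enzyme of serine synthesis, fell to 358 ± 27.5 CPM in the MTA1 group, against 463 ± 12.7 CPM in Ctrl (-0.37 ± 0.048, edgeR adjusted p = 1.4e-06). The summed level of the list overlapped between the groups, at 3274 to 3371 CPM in the MTA1 group and 3305 to 3359 CPM in Ctrl.

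Targets of the PPAR receptors, which act on ANGPTL4, had 4 of 8 higher (50%) and 4 lower (50%), against 29.5% higher and 28.6% lower over all tested genes, and a median log2 fold change of 0.02. PLIN2, a lipid droplet protein, rose to 171 ± 9.51 CPM in the MTA1 group, against 108 ± 4.01 CPM in Ctrl (0.66 ± 0.046, edgeR adjusted p = 2.1e-10), and ACSL3 rose by 0.32 ± 0.045 on the log2 scale (adjusted p = 3.6e-06). PDK4, a kinase of pyruvate dehydrogenase, fell to 24.4 ± 0.931 CPM in the MTA1 group, against 37.3 ± 1.37 CPM in Ctrl (-0.61 ± 0.053, edgeR adjusted p = 6.2e-09).

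The protein-coding genes next to the hypoxia effector genes on the chromosome, were looked at after the data were seen. Of 18 tested neighbours, 5 rose (27.8%) and 7 fell (38.9%), against 29.5% higher and 28.6% lower over all tested genes, and their median log2 fold change was 0.002. Picked with their values known were TPM2, MRPL14, ST3GAL1 and SPCS3. Beside CA9, TPM2 fell (-0.22, edgeR adjusted p = 1.5e-04), and beside VEGFA, MRPL14 fell (-0.71, adjusted p = 4.4e-11). Beside NDRG1, ST3GAL1 rose (0.34, edgeR adjusted p = 5.9e-04), and beside VEGFC, SPCS3 rose (0.58, adjusted p = 1.9e-09).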
